A study of Mus musculus with 6 samples.

Results

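The cell cycle and proliferation genes described here are 38 genes of 53715 in the deposited gene table, chosen by name as rows whose gene symbol is on a fixed list. They were divided by role into 4 genes of G1 entry (the D-type cyclins Ccnd1, Ccnd2 and Ccnd3 and their kinase Cdk4), 17 genes of the G1/S transition and DNA replication, and 17 genes of G2 and mitosis (G2/M). RNA came from CD146+CD45-CD31- sorted cells. The mice were wild-type C57BL/6J males aged 14 weeks, and the tissue was the gastrocnemius-soleus complex. In 3 stimulated mice the lower leg muscles were driven electrically through 40 contractions, 20 eccentric (lengthening) and 20 concentric (shortening), in about 10 min, and tissue was taken 3 h later. The 3 sham mice received no stimulation. Each group had 3 mice and 3 libraries, numbered as in the sample titles.

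A cell that leaves quiescence first raises D-type cyclins, which with Cdk4 or Cdk6 phosphorylate the retinoblastoma protein and release E2F transcription factors. E2F targets, among them the Mcm helicase subunits, Pcna and the nucleotide synthesis enzymes, are then transcribed for S phase. The genes of G2 and mitosis follow later, switched on through the MuvB complex with B-Myb and Foxm1, and their mRNAs mark cells that are already dividing. Pericytes of resting adult muscle are largely quiescent, whereas activated lymphocytes and myeloid precursors divide.

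The promoters of 3 G2/M members and 1 G1/S member are shown because they hold the sequence elements whose frequency differed between the phases. The 3 are the G2/M members whose values did not overlap between the groups (below), and Mcm6, a subunit of the replicative helicase, is the G1/S example. Each window holds 250 bases before to 50 after the RefSeq gene start (GRCm38.p6), 5′ to 3′ on the gene's own strand. Capitals mark the CCAAT box (CCAAT, or ATTGG on the other strand), the cell cycle genes homology region or CHR (TTTGAA or TTTAAA, either strand) and the E2F element (TTTCCCGC, TTTCGCGC, TTTGCCGC or TTTGGCGC, either strand).
Plk1, chr7:122159185-122159484, plus strand: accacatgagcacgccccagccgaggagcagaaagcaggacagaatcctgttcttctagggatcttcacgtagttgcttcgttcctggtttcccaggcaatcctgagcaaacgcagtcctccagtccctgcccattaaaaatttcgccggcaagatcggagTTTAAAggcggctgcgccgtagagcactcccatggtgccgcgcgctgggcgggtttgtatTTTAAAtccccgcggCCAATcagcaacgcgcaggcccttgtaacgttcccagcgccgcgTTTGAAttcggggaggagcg
Ccnb1, chr13:100786437-100786736, minus strand: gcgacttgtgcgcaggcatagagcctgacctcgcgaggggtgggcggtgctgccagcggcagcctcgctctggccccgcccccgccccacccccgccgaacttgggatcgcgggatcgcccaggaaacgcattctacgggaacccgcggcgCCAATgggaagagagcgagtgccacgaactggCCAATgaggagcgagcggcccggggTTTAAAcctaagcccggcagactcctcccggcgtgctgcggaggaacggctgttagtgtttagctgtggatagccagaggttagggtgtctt
Cenpf, chr1:189688037-189688336, minus strand: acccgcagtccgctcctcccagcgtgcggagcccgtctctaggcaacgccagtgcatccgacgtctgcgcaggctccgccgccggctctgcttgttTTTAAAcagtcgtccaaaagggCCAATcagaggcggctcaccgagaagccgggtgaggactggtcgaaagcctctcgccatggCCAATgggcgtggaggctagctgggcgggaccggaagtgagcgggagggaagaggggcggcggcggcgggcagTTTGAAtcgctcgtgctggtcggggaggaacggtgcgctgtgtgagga
Mcm6, chr1:128359656-128359955, minus strand: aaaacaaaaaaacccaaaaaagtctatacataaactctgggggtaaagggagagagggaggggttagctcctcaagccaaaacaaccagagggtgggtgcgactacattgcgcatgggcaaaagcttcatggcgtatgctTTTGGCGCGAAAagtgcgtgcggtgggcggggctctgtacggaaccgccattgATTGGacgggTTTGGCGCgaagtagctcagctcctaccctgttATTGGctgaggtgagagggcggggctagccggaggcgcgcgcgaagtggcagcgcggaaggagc

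The Plk1 window held 1 CCAAT box and 3 CHR matches, that of Ccnb1 2 CCAAT boxes and 1 CHR, and that of Cenpf 2 of each. None of the 3 held an E2F element. The Mcm6 window held 3 E2F matches, the most of any member window, and 2 of them overlap. It also held 2 CCAAT boxes and no CHR. RefSeq promoters were found for 30 of the 38 members, 32 windows in all. A CCAAT box together with a CHR was found in 11 of 14 G2/M windows (78.6%), in 3 of 15 G1/S windows (20.0%) and in 10.7% of all 32851 promoter windows of this length. An E2F element was found in 1 of 14 G2/M windows (7.1%), in 6 of 15 G1/S windows (40.0%) and in 2.3% of all windows. These are matches of letters and not shown binding sites.

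Each library held 17520338 to 23709220 estimated reads. The deposited gene values, called estimated counts here, are scaled by length and are not sums of reads. In these the 38 members took 11378 to 18677. Members ranged from 13 to 3155 estimated counts in a library, 17 of them averaged at least 300, and 13 averaged under 100. In transcript reads summed without length scaling, the range was 9 (Bub1 in sham library 2) to 2417 (Ccnd2 in stimulated library 3). The sort antigens were checked first. Mcam, which encodes CD146, had 24.3, 30.8 and 54.1 CPM (estimated counts relative to library size, scaled by TMM) in stimulated libraries 1, 2 and 3, against 39.1, 104.9 and 64.0 CPM in sham libraries 1, 2 and 3. Ptprc, which encodes CD45, stood at 1027, 1035 and 989.3 CPM in the stimulated libraries, against 813.9, 194.4 and 862.6 CPM in the sham libraries. Pecam1, which encodes CD31, had 383.9, 429.4 and 577.1 CPM in the stimulated libraries, against 523.8, 1277 and 750.9 CPM in the sham libraries. Transcripts of both excluded antigens were thus present in every library, and in sham library 2 Ptprc was lowest while Mcam and Pecam1 were highest. The cells are therefore called sorted cells here and not pericytes. In bulk samples fewer cells of a type and less RNA per cell cannot be told apart.

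Levels are compared between genes only as TPM (transcript abundance corrected for length and library size), and only in their order, since transcripts under 200 bases took 88.3 to 91.5% of all TPM. A few reads on a very short transcript can weigh heavily in such values. The order given here, chosen after the data were seen, therefore uses transcripts with an effective length of at least 100 bases in every library. These held 31.3% of the TPM of Ccnd3, 49.0% of that of Ccnd2, 26.9% of that of Mcm2, 76.1% of that of Nusap1 and 78.5% of that of Bub1, and over 80% in the other 33 members. Pcna, the sliding clamp of the replication fork, was the most abundant member in all 6 libraries, with a mean TPM of 7.81. Its protein-coding transcript gave only 1.30 to 2.47 TPM in a library. A 589-base processed transcript, ENSMUST00000136676.7, gave 3.01 to 4.30 TPM. Next came Ccnd2 at 1.46, Ccnd3 at 1.41, Rrm1, the large subunit of ribonucleotide reductase, at 1.40, Cdk4 at 1.28 and Mcm7 at 1.12 TPM. Ccnd3 had 1.33, 1.68 and 1.66 TPM in stimulated libraries, against 1.08, 1.73 and 0.990 TPM in sham libraries, and the groups overlapped. Ccnd2 had 1.26, 1.42 and 1.37 TPM in stimulated libraries, against 1.44, 2.31 and 0.959 TPM in sham libraries. The means at ranks 2 to 5 in this order lay closer together than the libraries of each of these genes. Top2a, the topoisomerase that untangles sister chromatids, was the highest G2/M member at 0.562 TPM, at rank 10. Bub1, a kinase of the spindle checkpoint, was the lowest of all at 0.035 TPM. Over all transcripts the means were 4.50 TPM for Ccnd3, 2.98 for Ccnd2 and 1.65 for Mcm2, so their places depend on short transcripts, and Mcm2 falls to 0.444 TPM at rank 13 without them.

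**Figure D1:**
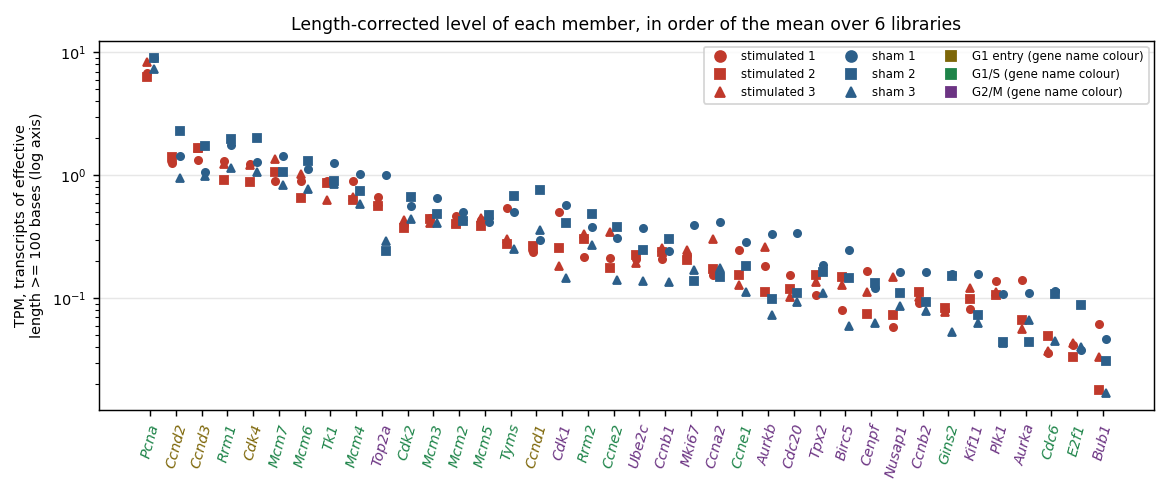
Length-corrected level (TPM over transcripts with an effective length of at least 100 bases, log axis) of each of the 38 members in each library, in order of the mean over 6 libraries; stimulated points in red stand left of sham points in blue, and gene names are coloured by phase. Pcna leads at a mean of 7.81 TPM, and the G2/M genes start with Top2a at 0.562 TPM and fill most of the low end.

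The stimulated and sham libraries were then compared over all genes, with the members read from the same fit. No member passed: edgeR's quasi-likelihood test with Benjamini-Hochberg adjustment called 0 of 38, and its smallest adjusted p among members was 0.617. Over all 26559 genes tested it called 0 as well (0%), with a smallest adjusted p of 0.0504. At an unadjusted p under 0.05, edgeR's test held 2 of 38 members, Ccnd3 and Plk1, beside 1872 genes or 7.05% of all genes tested. DESeq2 called 227 of 19835 genes (1.14%) and limma voom 0, and neither called a member. The values below are therefore descriptions, and "higher" or "lower" refers to the fitted value only. With 3 libraries a group, the smallest two-sided p of an exact permutation test is 0.1, and no single member was tested that way.

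In 4 members every stimulated library lay above every sham library, namely Ccnd3, Plk1, Ccnb1 and Cenpf, and in 0 members did every one lie below. The share of all genes with groups separate in this way was 6.12% higher and 5.89% lower. These 4 were singled out after their values were seen, and their separation depended on how reads were turned into gene values. With reads summed without length scaling, the groups of Plk1, Ccnb1 and Cenpf overlapped (below). Those of Ccnd3 overlapped in TPM over transcripts with an effective length of at least 100 bases (above).

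Ccnd3 had the widest gap among the G1 entry genes. The gene encodes cyclin D3, the D-type cyclin on which developing lymphocytes depend in mice, and lies at chr17:47505051-47599691 (GRCm38, plus strand). It had 116.2, 111.6 and 94.1 CPM in stimulated libraries 1, 2 and 3, against 57.7, 38.2 and 79.3 CPM in sham libraries 1, 2 and 3. The lowest stimulated library was above the highest sham library, and the sham libraries were spread more widely. The log2 fold change was 0.88 (SE 0.30), with an unadjusted p of 0.0165 and an adjusted p of 0.617 by edgeR's quasi-likelihood test with Benjamini-Hochberg adjustment.

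The other D-type cyclins showed no such separation. Ccnd2, which encodes cyclin D2, had 63.8, 88.6 and 96.1 CPM in the stimulated libraries, against 140.2, 122.2 and 43.9 CPM in the sham libraries. Sham library 3 was the lowest of all and the other sham libraries were the highest, giving a log2 fold change of -0.30 (SE 0.41), which turned to 0.17 with transcript reads summed without length scaling. Ccnd1, which encodes cyclin D1, had 18.2, 24.2 and 20.9 CPM in stimulated libraries, against 16.8, 37.2 and 34.7 CPM in sham libraries, a log2 fold change of -0.49 (SE 0.33). For Ccnd1 as well 1 sham library was the lowest of the 6 and the other sham libraries the highest. Cdk4 was near even, with means of 20.7 ± 1.95 CPM in stimulated and 20.9 ± 3.86 CPM in sham libraries (SD, n = 3 each). Its log2 fold change was -0.01 (SE 0.25). The sign of that value turned under several alternative settings.

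The values of Ccnd2 depended on how its reads were weighed. In summed reads, which are not corrected for length, Ccnd2 had 95.0, 102.8 and 101.9 RPM (estimated reads relative to library size) in stimulated libraries, against 97.3, 106.8 and 71.2 RPM in sham libraries. On this scale sham library 3 was the lowest, and the sham range held all 3 stimulated libraries. The wider range of Ccnd2 in the deposited values came with a 127-base transcript, ENSMUST00000201564.1, whose effective length was 5 bases. It held 1, 1 and 3 reads in stimulated libraries and 7, 4 and 0 in sham libraries, and these gave 3.83 TPM in sham library 1 and 2.96 TPM in sham library 2, where Ccnd2 came to 5.27 TPM in each.

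The transcript tables showed which Ccnd3 reads differed when counted without length scaling. Those on its protein-coding transcripts came to 39.1, 39.4 and 41.0 RPM in the stimulated libraries, against 28.7, 42.6 and 35.2 RPM in the sham libraries, and these overlapped. Those on its retained-intron transcripts came to 45.2, 59.2 and 45.2 RPM in stimulated libraries, against 25.9, 19.8 and 24.1 RPM in sham libraries, with no overlap. A single-exon transcript of 2670 bases, ENSMUST00000183061.1 at chr17:47505241-47507910 (GRCm38, plus strand), was the most abundant of these on average, at 32.3, 44.8 and 32.0 RPM in stimulated libraries and 17.5, 8.48 and 13.6 RPM in sham libraries. That was 71.5, 75.7 and 70.8% of the retained-intron reads in stimulated libraries, against 67.8, 42.9 and 56.2% in sham libraries. It shares 0 bases with exons of Bysl, the gene on the other strand that overlaps Ccnd3. In TPM this transcript gave 0.445, 0.578 and 0.47 in stimulated libraries, against 0.292, 0.178 and 0.185 in sham libraries. Short transcripts weighed more in the length-scaled gene values. The 283-base retained-intron ENSMUST00000182591.1 gave 2.205, 0.965 and 1.486 TPM in stimulated libraries, against 0.596, 0.594 and 1.59 TPM in sham libraries, with overlapping groups. The 299-base protein-coding ENSMUST00000183210.1 gave 1.69, 1.75 and 0.871 TPM in stimulated libraries, against 0.482, 0 and 0.326 TPM in sham libraries. The 336-base ENSMUST00000183206.1 leaned the other way, at 0.896, 0.648 and 0.369 TPM against 1.48, 0.881 and 0.469 TPM.

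Retained-intron transcripts thus held 55.4 ± 4.1% of the Ccnd3 reads of both classes in stimulated libraries and 39.9 ± 7.9% in sham libraries (SD, n = 3 each). The groups did not overlap, but edgeR's test of differential transcript class use (diffSpliceDGE, Benjamini-Hochberg adjustment) gave an unadjusted p of 0.114 and an adjusted p of 1. Over the 6761 genes with enough reads in both classes (at least 50 on average and 5 in each class) that test called 0 (0%), and 1.42% had an unadjusted p under 0.05. Separate groups were found in 8.76% of those genes with a higher share and 2.69% with a lower share in stimulated libraries. Among the 21 members with enough reads in both classes, the share was separate and higher for Ccnd3 and Aurkb. Aurkb, which encodes a kinase of the chromosomal passenger complex, had 48.2 ± 6.0% in stimulated and 38.1 ± 5.3% in sham libraries (SD, n = 3 each). The share was separate and lower for Tyms, which encodes thymidylate synthase, at 17.2 ± 1.0% in stimulated and 22.4 ± 4.3% in sham libraries (SD, n = 3 each). As a share of reads on all transcript classes, the groups overlapped for both Aurkb and Tyms. Aurkb then had 44.2, 55.6 and 40.9% in stimulated libraries, against 42.2, 29.8 and 32.4% in sham libraries. Tyms had 12.1, 10.9 and 10.4% against 8.4, 13.1 and 18.6%. The median share over all 6761 genes was 24.5, 24.2 and 23.6% in stimulated libraries, against 24.4, 21 and 21.2% in sham libraries. Several members carried mostly retained-intron reads in both groups: the share averaged 88.3% in stimulated and 81.9% in sham libraries for Ccnb1. It averaged 85.7% in stimulated and 82.8% in sham libraries for Cdk4, and 80.9% in stimulated and 81.7% in sham libraries for Tk1, the thymidine kinase.

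**Figure D2:**
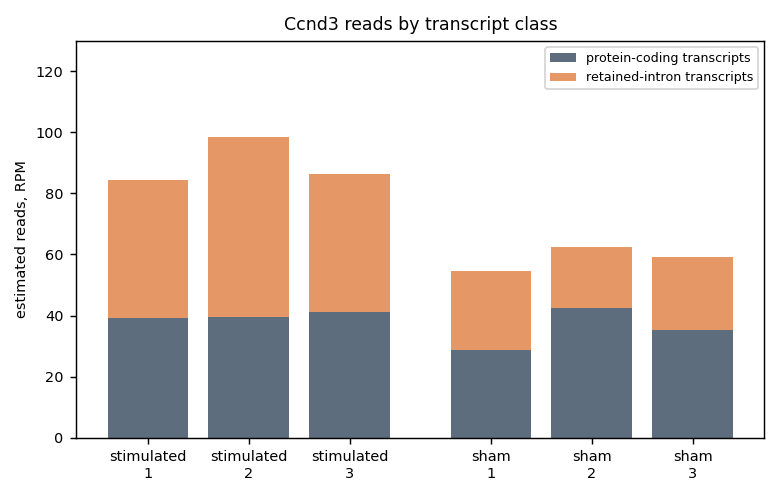
Estimated Ccnd3 reads relative to library size (RPM) in each library, stacked by annotated transcript class, stimulated libraries left and sham libraries right. Protein-coding reads overlap between the groups (39.1 to 41.0 in stimulated and 28.7 to 42.6 in sham libraries), while retained-intron reads do not (45.2 to 59.2 in stimulated and 19.8 to 25.9 in sham libraries).

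The 17 G1/S genes lay close to even. In 11 of them the fold change was above 0, against 48.0% of all genes tested, and the median log2 fold change was 0.08, against -0.02 over all genes. The range ran from -0.66 for Cdc6 to 0.71 for Mcm2, and the lowest unadjusted p in the group was 0.0935 by edgeR's test. Mean log2 CPM over the group was 3.82, 3.90 and 3.89 in stimulated libraries, against 3.76, 3.65 and 3.94 in sham libraries, with sham library 3 the highest.

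Mcm2 to Mcm7 encode the 6 subunits of the replicative helicase. Mcm2 had 34.6, 35.9 and 40.0 CPM in stimulated libraries, against 11.02, 19.1 and 37.2 CPM in sham libraries. The stimulated libraries were alike, while sham library 3 reached their level and sham libraries 1 and 2 did not. Its log2 fold change was 0.71 (SE 0.40), and 0.42 with transcript reads summed without length scaling. A 273-base transcript, ENSMUST00000203935.1, held 34.9, 38.4 and 45.0 reads in stimulated libraries and 6.8, 16.2 and 33.2 in sham libraries. It gave 1.49, 1.28 and 1.71 of the 1.96, 1.68 and 2.13 TPM of Mcm2 in stimulated libraries, against 0.337, 1.24 and 1.19 of 0.838, 1.67 and 1.64 TPM in sham libraries. Over the transcripts with an effective length of at least 100 bases Mcm2 had 0.467, 0.402 and 0.412 TPM in stimulated libraries, against 0.502, 0.423 and 0.457 TPM in sham libraries. Mcm7 followed at 21.4, 30.9 and 34.5 CPM in stimulated libraries, against 25.6, 16.4 and 25.6 CPM in sham libraries, a log2 fold change of 0.36 (SE 0.29). The groups overlapped, as did those of the other subunits, whose log2 fold changes were 0.26 for Mcm4, 0.17 for Mcm5, 0.11 for Mcm3 and 0.04 for Mcm6.

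Cdc6, which with Cdt1 loads the helicase onto origins, had the lowest fold change of the group. Its level was 2.27, 3.70 and 2.43 CPM in stimulated libraries, against 5.33, 4.39 and 3.57 CPM in sham libraries. Stimulated library 2 and sham library 3 overlapped, and the log2 fold change was -0.66 (SE 0.35). With transcript reads summed without length scaling it was -0.08, so the size of this value depended on the gene summary. Gins2, a subunit of the GINS complex of the active helicase, had a log2 fold change of -0.12 (SE 0.44).

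Pcna had 58.6, 66.1 and 76.6 CPM in stimulated libraries, against 58.6, 50.3 and 81.8 CPM in sham libraries. The sham libraries spread more widely and held both the lowest and the highest value. The nucleotide enzymes were near even, with log2 fold changes of 0.09 for Tyms, 0.00 for Tk1, -0.02 for Rrm2 and -0.13 for Rrm1, each with an SE of 0.22 to 0.32. With transcript reads summed, Rrm2 turned to 0.34 and Tk1 to -0.04. The cyclins E, which activate Cdk2 at the G1/S boundary, stood at 0.27 (SE 0.36) for Ccne2 and 0.25 (SE 0.38) for Ccne1 on the log2 scale. Cdk2 itself stood at -0.13 (SE 0.23), and E2f1, an activator of this gene group, at -0.10 (SE 0.36).

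**Figure D3:**
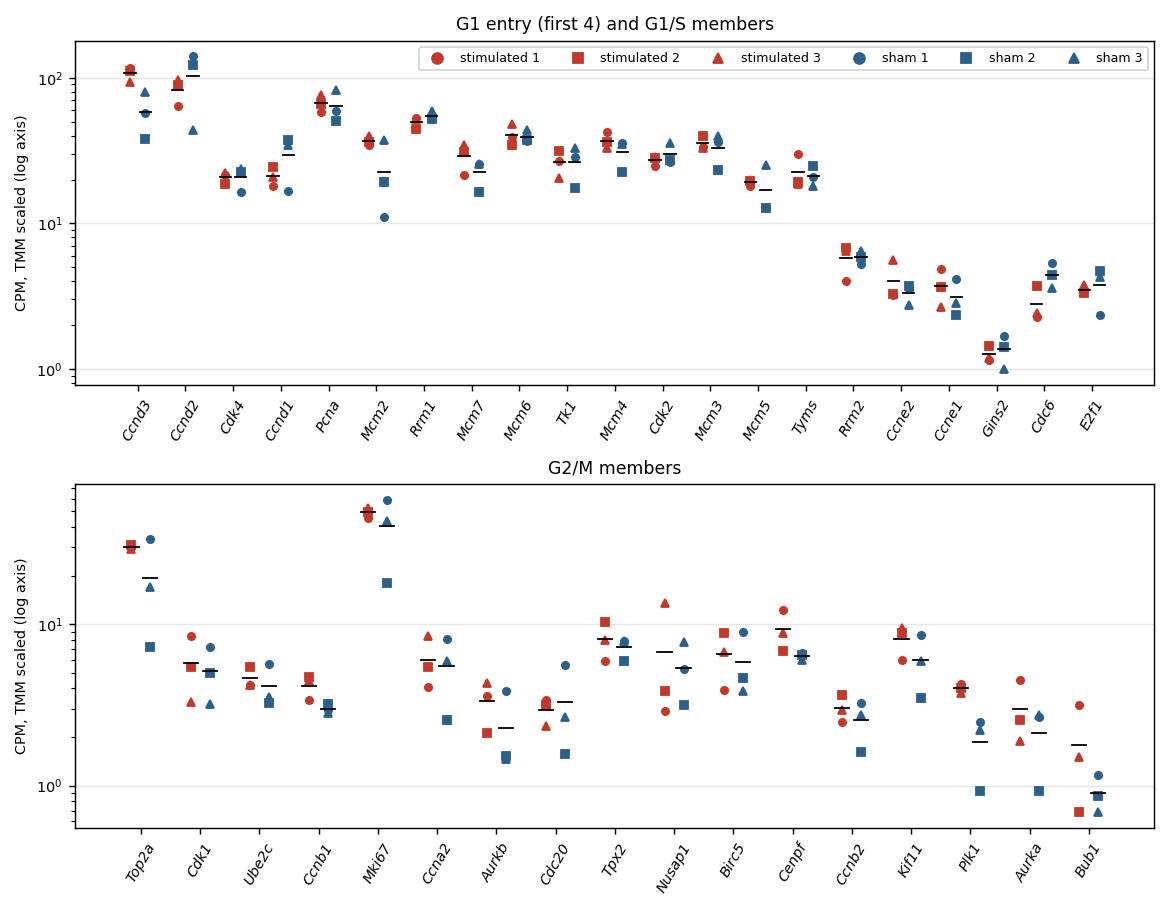
TMM-scaled CPM (log axis) of every member in every library, with G1 entry and G1/S genes above and G2/M genes below; red points are stimulated libraries, blue points to their right are sham libraries, and black bars are group means. Ccnd3, Ccnb1, Cenpf and Plk1 are the members whose colours do not overlap, and sham library 2 (blue square) is the lowest point of 9 G2/M genes.

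Among the 17 G2/M genes 16 had a fold change above 0, against 48.0% of all genes tested, and the exception was Cdc20 at -0.16 (SE 0.48). The median log2 fold change was 0.33, against -0.02 over all genes, and the median SE of these genes was 0.43. The genes shared their low libraries and so are not independent counts. Sham library 2 was the lowest of the 6 in 9 of the 17 genes and sham library 3 in 6, while over all genes these were lowest in 21.4 and 23.1%. Of the 17 G1/S genes, 7 were lowest in sham library 2 and 3 in sham library 3. Mean log2 CPM of the group was 2.53, 2.51 and 2.61 in stimulated libraries, against 2.64, 1.62 and 2.14 in sham libraries. The stimulated libraries were close together, and sham library 1 lay above all of them. Without sham library 1 the median was 0.58, and without sham library 2 it was 0.15 with 14 of 17 genes above 0. The difference between the mean log2 CPM of G2/M and G1/S genes was -1.29, -1.40 and -1.28 in stimulated libraries, against -1.12, -2.03 and -1.80 in sham libraries, and these ranges overlapped too.

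Mki67, which encodes the Ki-67 proliferation antigen, took the most reads of the G2/M members, at 45.6, 49.9 and 52.6 CPM in stimulated libraries, against 59.2, 18.0 and 44.0 CPM in sham libraries. Top2a had 30.5, 30.9 and 29.1 CPM in stimulated libraries, against 33.7, 7.20 and 17.0 CPM in sham libraries. For both genes the stimulated libraries were close together and lay within the sham range, sham library 1 highest and sham library 2 lowest. The log2 fold changes were 0.29 (SE 0.39) for Mki67 and 0.64 (SE 0.46) for Top2a.

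Plk1 encodes polo-like kinase 1, which drives mitotic entry and spindle assembly, and lies at chr7:122159439-122169873 (GRCm38, plus strand). It had 4.27, 4.04 and 3.76 CPM in stimulated libraries, against 2.49, 0.921 and 2.21 CPM in sham libraries, with no overlap. Its log2 fold change of 1.10 (SE 0.42) was the highest of the 38, with an unadjusted p of 0.0292 and an adjusted p of 0.668 by edgeR's quasi-likelihood test with Benjamini-Hochberg adjustment. The gap lay in a short transcript of 582 bases, ENSMUST00000205901.1, which held 20.9, 17.2 and 17.7 estimated reads in stimulated libraries and 8.9, 0 and 4.3 in sham libraries. The 2199-base transcript ENSMUST00000033154.7 held 12.5, 39.8 and 31.3 reads in stimulated libraries and 42.7, 27.0 and 29.7 in sham libraries, so these overlapped. The deposited gene values follow TPM, in which a read on a short transcript weighs more. With reads summed without that scaling, Plk1 had 1.81, 2.71 and 2.07 RPM in stimulated libraries, against 2.56, 1.54 and 1.74 in sham libraries. The groups then overlapped and the log2 fold change was 0.22 (SE 0.38).

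Ccnb1 encodes cyclin B1, the partner of Cdk1 at mitotic entry, and had 3.37, 4.68 and 4.46 CPM in stimulated libraries, against 2.93, 3.20 and 2.84 CPM in sham libraries. Every stimulated library was higher, by a log2 fold change of 0.48 (SE 0.32). Cenpf, a kinetochore protein that accumulates in G2, had 12.3, 6.80 and 8.88 CPM in stimulated libraries, against 6.66, 6.45 and 5.99 CPM in sham libraries, a log2 fold change of 0.55 (SE 0.30). The sham libraries were tight, and stimulated library 2 was only just above them. With reads summed without length scaling, Ccnb1 had 4.67, 4.19 and 3.63 RPM in stimulated libraries, against 5.52, 2.40 and 2.38 in sham libraries. Cenpf then had 8.84, 8.57 and 9.32 RPM in stimulated libraries, against 10.5, 6.22 and 3.62 in sham libraries. Sham library 1 was the highest of the 6 for both, so their groups also overlapped on this scale. In the summed reads 1 member was separate and higher, Ccnd3 at 84.3, 98.6 and 86.2 RPM in stimulated libraries, against 54.6, 62.3 and 59.3 RPM in sham libraries, a log2 fold change of 0.63 (SE 0.23). There 1 member was separate and lower, Cdk2 at 27.1, 26.7 and 26.4 RPM in stimulated libraries, against 30.1, 28.0 and 29.9 RPM in sham libraries. Over all genes tested, 5.34% were separate and higher and 7.30% separate and lower on this scale.

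The log2 fold change was 0.54 (SE 0.49) for the kinase Aurkb, 0.50 (SE 0.52) for Aurka and 0.97 (SE 0.60) for Bub1. Bub1 is thinly covered: its CPM was 3.16, 0.690 and 1.503 in stimulated libraries, against 1.16, 0.867 and 0.683 in sham libraries, with stimulated library 1 the highest and stimulated library 2 within the sham range. For the spindle proteins the log2 fold change was 0.42 (SE 0.38) for the motor Kif11, 0.33 (SE 0.59) for the microtubule binder Nusap1 and 0.17 (SE 0.31) for Tpx2, the activator of Aurora A. Nusap1 was highest in stimulated library 3, at 13.5 CPM against 2.90 and 3.84 CPM in stimulated libraries 1 and 2 and 5.29, 3.14 and 7.72 CPM in sham libraries, and without that library its log2 fold change was -0.68. Cdk1, the mitotic kinase, stood at 0.16 (SE 0.44), and its cyclins Ccna2 at 0.12 (SE 0.46) and Ccnb2 at 0.25 (SE 0.39). Ccnb2 is uncertain, since its processed copy Ccnb2-ps had a higher estimated count than the gene in every library. The copy had 93, 107 and 77 in stimulated libraries and 99, 62 and 72 in sham libraries. Ube2c, the ubiquitin-conjugating enzyme of the anaphase-promoting complex, and Birc5, which encodes survivin, both stood at 0.16, with SEs of 0.34 and 0.43.

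**Figure D4:**
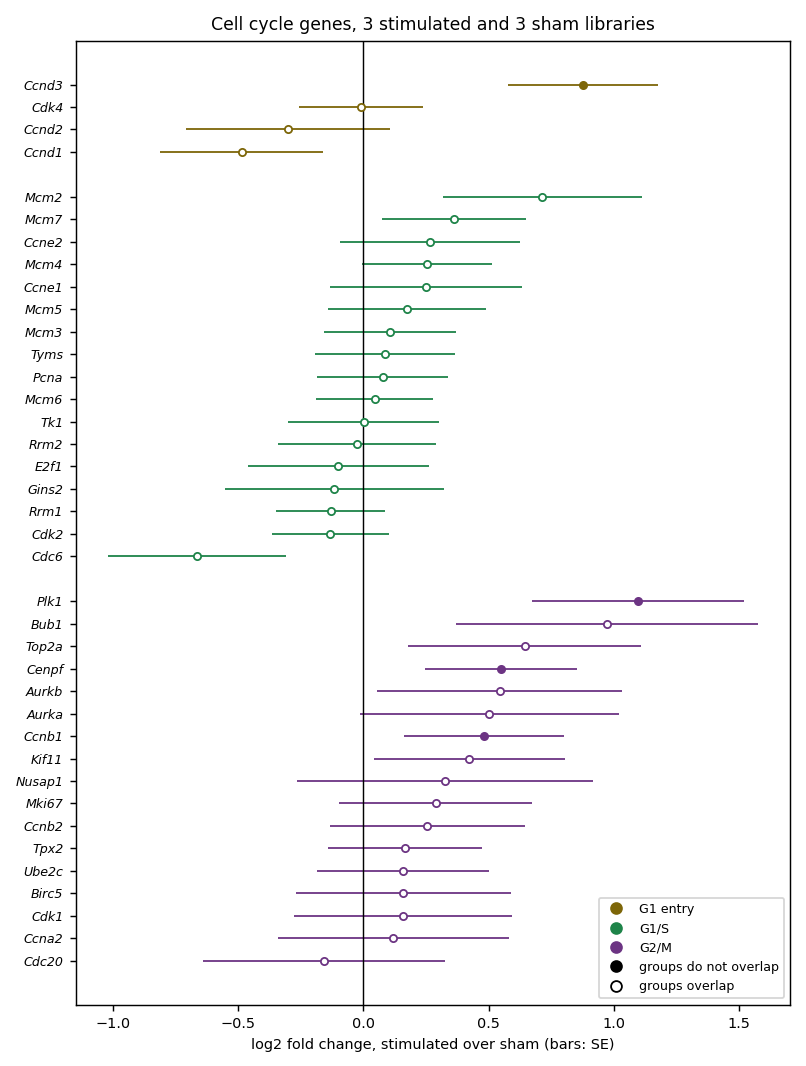
Log2 fold change of each member, stimulated over sham, with bars of 1 SE, by phase and in order of size; filled points mark genes whose 3 stimulated and 3 sham CPM values do not overlap. G1/S genes are spread about 0 (median 0.08), 16 of 17 G2/M genes lie above 0 (median 0.33), and no gene passed the adjusted threshold.

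T and NK cell and B cell markers shared with the G2/M genes the low of sham library 2. The T and NK cell markers differed from the G2/M genes in sham library 1, and the B cell markers in sham libraries 1 and 3. Mean log2 CPM of 11 T and NK cell markers was 5.34, 5.44 and 5.33 in stimulated libraries, against 4.94, 2.59 and 4.49 in sham libraries. It was lowest in sham library 2, as for the G2/M genes, and 11 of 11 markers had a fold change above 0. In sham library 1, where the G2/M genes were highest, the mean of these markers lay below every stimulated library. In sham library 3 the means of these markers and of the G2/M genes both lay below every stimulated library. The 8 B cell markers averaged 7.71, 7.99 and 7.48 in stimulated libraries, against 7.27, 4.64 and 8.25 in sham libraries, again lowest in sham library 2 but highest in sham library 3, where the G2/M genes were low. The 9 neutrophil markers tested averaged 4.08, 3.06 and 3.56 in stimulated libraries, against 2.22, 1.12 and 0.785 in sham libraries, lowest in sham library 3. In the other direction, 12 endothelial markers averaged 6.96, 7.08 and 7.53 in stimulated libraries, against 7.57, 8.93 and 8.24 in sham libraries, highest in sham library 2. The 10 pericyte markers averaged 2.33, 2.79 and 3.56 in stimulated libraries, against 3.48, 4.50 and 3.53 in sham libraries. Of the other lists, fold changes were above 0 in 4 of 5 plasma cell, 2 of 8 macrophage and monocyte, 0 of 8 fibro-adipogenic, 5 of 6 satellite cell, 7 of 8 myofibre, 1 of 5 erythroid and 2 of 5 glial markers tested. No marker of any list was at 0 in all libraries. The part of the lymphocyte, neutrophil and endothelial RNA in the G2/M values was not tested.

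**Figure D5:**
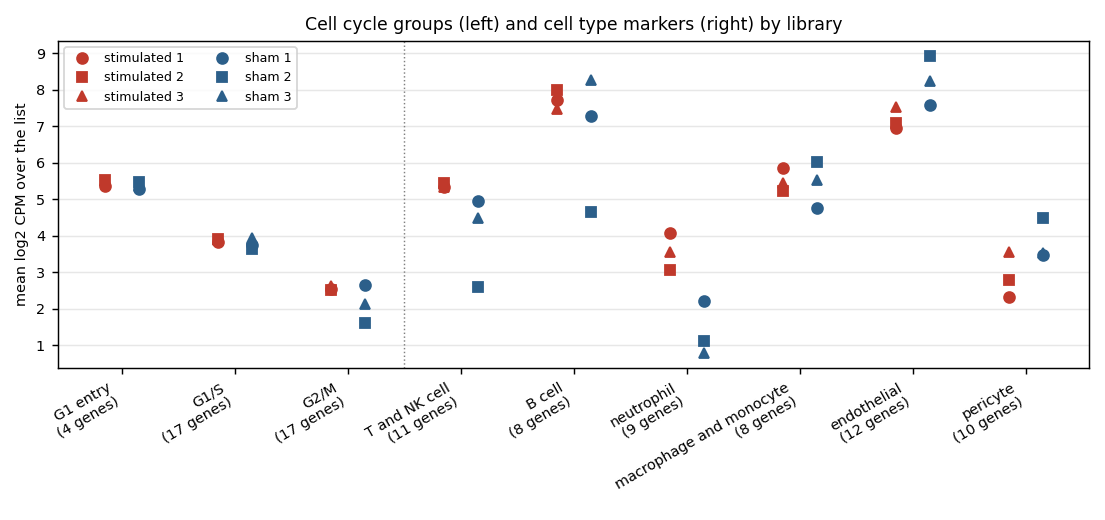
Mean log2 CPM over each gene list in each library, for the 3 cell cycle groups left of the dotted line and 6 cell type marker lists right of it; red is stimulated, blue sham, and the symbol gives the replicate number. Sham library 2 (blue square) is lowest for the G2/M genes and for T and NK cell and B cell markers, and highest for endothelial and pericyte markers.

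Wider lists of the cell cycle, which do not contain the members, gave the surroundings. Of 44 further genes of the replication origin and fork, 27 had a fold change above 0, and the median on the log2 scale was 0.08. Of 55 further genes of the mitotic machinery, 31 were above 0 with a median of 0.06. The mitotic genes outside the 17 were thus nearly even, beside 48.0% above 0 and a median of -0.02 over all genes. Sham library 2 was lowest in 30 of these 55 genes and in 23 of the 44 replication genes. Over all genes it was lowest in 21.4%. By edgeR's quasi-likelihood test with Benjamini-Hochberg adjustment 0 genes passed in the 5 wider lists, and at an unadjusted p under 0.05 they held 7 genes higher and 3 lower of 155 tested, beside 2.64 and 4.41% of all genes. Groups were separate and higher in 4 of the replication genes, 4 mitotic genes, 3 other CDK regulators, 1 E2F-list factor and 0 CDK inhibitors. They were separate and lower in 2 mitotic genes, 3 E2F-list factors and 0 in the other lists. The shares over all genes were 6.12% higher and 5.89% lower.

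Dut, the dUTPase that keeps uracil out of DNA, had 13.3, 19.7 and 15.1 CPM in stimulated libraries, against 7.55, 6.99 and 7.72 CPM in sham libraries. All stimulated libraries lay above all sham libraries, with a log2 fold change of 1.11 (SE 0.27) and an adjusted p of 0.424 by edgeR's quasi-likelihood test with Benjamini-Hochberg adjustment. Orc1, the largest subunit of the origin recognition complex, stood at -1.95 (SE 0.60), with 3.21, 2.27 and 1.68 CPM in stimulated libraries, against 8.04, 17.0 and 2.73 CPM in sham libraries. Sham library 2 was the highest, and sham library 3 was close to the stimulated libraries. Pole, the catalytic subunit of the leading-strand polymerase, had a log2 fold change of 0.75 (SE 0.28) with separate groups. Among mitotic genes Dlgap5, a spindle assembly factor, stood at 0.88 (SE 0.37) with separate groups and Ect2, which triggers cytokinesis, at -0.94 (SE 0.41), with groups separate in the other direction.

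Cdk6, another partner kinase of the D-type cyclins, had 87.8, 71.7 and 53.9 CPM in stimulated libraries, against 22.2, 30.9 and 38.3 CPM in sham libraries. The groups did not overlap, and the log2 fold change was 1.22 (SE 0.29), with an adjusted p of 0.424 by edgeR's quasi-likelihood test with Benjamini-Hochberg adjustment. Its relative Cdk4 was near even, as given above. In the same list of 17 regulators, 12 were above 0, among them Cdc25a, the phosphatase that activates Cdk2, at 0.81 (SE 0.35), and Skp2, which targets the inhibitor p27 for degradation, at 0.74 (SE 0.32). Both had separate groups.

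Of 23 E2F, retinoblastoma, MuvB and Myc factors, 10 were above 0. E2f8, an atypical repressor of E2F targets, stood at 0.96 (SE 0.35) with separate groups. It was the 1 gene of this list separate and higher, while 3 were separate and lower, among them Lin54 at -0.33 (SE 0.23). Myb, which encodes the c-Myb factor of blood progenitors, had 57.9, 96.4 and 52.0 CPM in stimulated libraries, against 54.4, 4.06 and 10.3 CPM in sham libraries, and again sham library 1 reached the stimulated level. Foxm1, which activates G2/M genes, stood at -0.18 (SE 0.29). Myc, a growth regulator and early response gene, had 124.3, 168.5 and 121.2 CPM in stimulated libraries, against 126.4, 41.9 and 184.0 CPM in sham libraries, with the lowest and the highest value both in sham libraries.

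Of 16 tested CDK inhibitors and antiproliferative genes, 8 were above 0. Cdkn1a, which encodes the inhibitor p21, had 35.3, 56.4 and 88.0 CPM in stimulated libraries, against 30.3, 56.7 and 37.4 CPM in sham libraries, a log2 fold change of 0.53 (SE 0.37) with overlapping groups. Cdkn1b, which encodes p27, stood at -0.06 (SE 0.28). Cdkn1c, which encodes p57, had 14.9, 27.5 and 37.0 CPM in stimulated libraries, against 25.4, 103.6 and 55.7 CPM in sham libraries. Its log2 fold change was -1.22 (SE 0.50), with the highest value in sham library 2, where the endothelial and pericyte markers were highest as well.

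Exons of 13 members overlap exons of a gene on the other strand, 12 of them a protein-coding gene, and the sources used here do not say whether the counting used strand. The mean estimated count of the member was below that of its partner for Ccne2 (75.7 against 962.8 for Ints8) and Gins2 (26.8 against 1277 for Gse1). It was also below for Ccna2 (120.3 against 483.8 for Exosc9), Cdc20 (64.5 against 341 for Elovl1) and Ube2c (90 against 105 for Tnnc2). These members are therefore uncertain.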

How the data were processed

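RNA was measured in 6 libraries of sorted muscle cells, 3 stimulated and 3 sham, prepared with a strand-keeping pico-input kit for total RNA, as the labels' protocols state. Salmon 0.8.2, Trimmomatic 0.36, bcl2fastq 2.17.1.14, edgeR under R 3.5.1 and the mouse build GRCm38 appear, without order or settings, in the submitters' processing notes. Estimated counts per gene were deposited by the authors in 1 table, together with, per the file headers, transcript tables that hold TPM, estimated counts and effective lengths in bases for each library. In the 14096 genes with a TPM above 0.1 in all libraries, deposited gene counts followed TPM times a gene factor and a library factor, constant within 1% in 100% of them. They are thus scaled by length and are not sums of reads.

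Estimated counts were rounded to whole numbers and filtered with edgeR's filterByExpr (minimum count 10, minimum total 15), which left 26559 genes and all 38 members. Stimulated and sham libraries were compared with edgeR 4.0.16 (robust quasi-likelihood F test, TMM scaling, no covariate, R 4.3.3) and Benjamini-Hochberg adjustment over all genes at 0.05. The common biological coefficient of variation was 0.398. Single genes are named by rule: all 38 members; up to 4 genes per wider list with the smallest unadjusted p and a mean log2 CPM of at least 1, some of which are not described; and Cdkn1a, Cdkn1b, Myc, Foxm1 and the sort genes. Members and lists were chosen with earlier results of these data known, so no list was tested. Transcript classes came from the deposited reads and GENCODE mouse release M21 (GRCm38), which matched 99.8% of gene identifiers; genes entered with at least 50 reads on average and 5 in each class. Protein-coding and retained-intron reads were compared with edgeR's diffSpliceDGE, a step added after the data were seen. The order of members by TPM was restricted, also after the data were seen, to transcripts with an effective length of at least 100 bases in every library. Promoters came from RefSeq. Between replicates the chi-square per gene was 26.5 to 97.4, above sampling noise, so all 6 libraries were counted. The p-values measure the spread between 3 mice a group. Alternatives were DESeq2 1.42.0, limma voom (3.58.1), RLE size factors, other filters, summed transcript reads, ribosomal RNA genes left out, a replicate block, a threshold of 0.1, protein-coding genes only (added after the data were seen) and leaving out each library.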

Additional observations from a re-analysis of the deposited data

How the results depend on the processing

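No member passed an adjusted threshold in any alternative run. Over all genes 0 were called higher and 0 lower. That became 3 higher with RLE size factors or a threshold of 0.1, 44 higher and 65 lower with no filter, 74 higher and 153 lower with DESeq2, 1 higher with transcript reads summed and 2 higher over protein-coding genes. Leaving out each library gave 0 to 1 higher. Members with an unadjusted p under 0.05 by edgeR's test numbered 2, then 1 with transcript reads summed (7.49% of all genes) and 0 to 5 with a library left out (3.93 to 11.4%). They were 5 without sham library 1 (Ccnd1, Ccnd3, Top2a, Aurkb and Plk1; 9.38%) and 4 without sham library 3 (Ccnd2, Ccnd3, Mcm2 and Plk1; 11.4%). Members with separate groups, 4 higher and 0 lower, numbered 4 to 9 higher and 0 to 3 lower with a library left out, when 9.07 to 15.1% of all genes were separate and higher and 8.25 to 14.9% lower.

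Among G1 entry genes 1 was above 0. This was 2 with RLE size factors, no filter, DESeq2, limma voom, ribosomal RNA genes left out, the replicate block or protein-coding genes only, 3 with transcript reads summed, and 1 to 2 with a library left out. Their median was 0.112 with transcript reads summed and ran from -0.239 to -0.035 with a library left out. The G1/S median ran from -0.029 to 0.155 with 8 to 13 genes above 0, and the G2/M median from 0.148 to 0.582 with 14 to 17.

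Single log2 fold changes that turned in sign, none of them past the threshold, were mostly near 0. For Cdk4 the value was 0.0117 with RLE size factors, 0.0387 with no filter, 0.0121 with DESeq2, 0.0083 with limma voom, 0.0523 with transcript reads summed, 0.0077 without ribosomal RNA genes, 0.0035 with the replicate block and 0.0495 over protein-coding genes. For Rrm2 it was 0.0308 with no filter, 3e-04 with DESeq2, 0.3375 with transcript reads summed and 0.0254 over protein-coding genes. With transcript reads summed it was 0.1716 for Ccnd2, 0.0495 for Gins2 and -0.0415 for Tk1. With a library left out, values that turned ran from -0.1558 to 0.0964 for Cdk4, -0.0452 to 0.4507 for Ccne2, -0.2136 to 0.0298 for Cdk2, -0.352 to 0.0917 for E2f1, -0.2833 to 0.0672 for Gins2, -0.0851 to 0.2697 for Mcm3, -0.0913 to 0.1487 for Mcm6, -0.0619 to 0.3149 for Pcna, -0.1261 to 0.2186 for Tyms, -0.1498 to 0.2209 for Rrm2 and -0.2158 to 0.2039 for Tk1. For the G2/M genes they ran from -0.212 to 0.5008 for Ccna2, -0.1833 to 0.4884 for Cdk1, -0.0518 to 0.6692 for Mki67, -0.1185 to 0.6169 for Birc5, -0.6749 to 0.7185 for Nusap1, -0.0447 to 0.3823 for Tpx2 and -0.4737 to 0.4716 for Cdc20. Apart from the transcript sums and the left-out libraries, the cause was not tested.

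The deviations of same-numbered libraries from their group means had correlations of 0.317, -0.161 and 0.128. These differ in sign and did not show pairing by number, but with 3 libraries a group they cannot exclude it. With the replicate block 0 genes and 0 members were called, 3 members had an unadjusted p under 0.05 (6.75% of all genes), 17 of 17 G2/M genes were above 0 with a median of 0.44, and Cdc20 stood at 0.0026.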
